A study of Mus musculus with 24 samples.

Results

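Activated CD4 T cells of Pou2af1 knockout mice were compared with control cells over all genes, in 8 of the 24 libraries of the series: 4 knockout and 4 control. The cells were sorted as CD4+ from the spleens of C57BL/6 mice aged 12 weeks and stimulated in culture for 2 days with antibodies against CD3 and CD28. Knockout mice carried a Cre transgene under the Cd4 promoter and floxed Pou2af1 on both chromosomes. Control mice were Cre-negative and also had both copies floxed according to the genotype field, while the titles write +/+. Presence of Cre and loss of Pou2af1 therefore differ together and cannot be told apart in this comparison alone. A further 4 CD4 libraries from heterozygotes, which carried the same Cre with 1 floxed copy, entered the fit, so that the spread was estimated from 12 libraries. Nothing in the labels says that libraries of a group came from different mice, and the tests below therefore weigh differences against library spread, some of which may be technical. Of 55401 genes in the count table, 12719 passed the filter on low counts and were tested.

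POU2AF1, also called OCA-B or OBF-1, is a coactivator with no DNA-binding domain of the usual kind. It is recruited to octamer elements in DNA by the POU factors POU2F1 (OCT1) and POU2F2 (OCT2), and it is best known for its part in antibody responses and germinal centre formation in B cells. T cells also express it, more so after activation, and Il2, Ifng, Btla and other genes have been reported as its targets there.

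The libraries held 13.9 to 21.8 megacounts over all genes in controls and 12.0 to 13.9 megacounts in knockouts, and a floor of 3 counts corresponded to 0.138 to 0.249 CPM (reads of a gene per megacount of its library) over these 8 libraries. The lower depth of the knockouts did not pass an exact 2-sided permutation test after adjustment over 14 measures (p = 0.0286, the smallest that 4 against 4 libraries can give; adjusted p = 0.133). Libraries numbered 1 and 2 deviated together from their group means, and against those numbered 3 and 4, in both groups. By Xist, knockout library 2 and control library 3 came from females and the other 6 from males. The T cell and Cd4 levels matched the label. The 9 T cell markers summed to 2153 to 2385 CPM in controls and 2110 to 2433 CPM in knockouts. Cd4 stood at 446 to 526 CPM in controls and 483 to 543 CPM in knockouts. Of the 2 CD8 lineage markers, Cd8a stayed at or below 0.437 CPM. The other, Cd8b1, was measured at 7.79 to 9.77 CPM in controls and 8.22 to 12.2 CPM in knockouts. The summed levels of 10 marker lists were compared by the same test, in which a single list cannot reach an adjusted p of 0.05. Gamma delta T cell markers (0.881 to 1.13 CPM in controls, 1.29 to 1.90 CPM in knockouts) and neutrophil markers (0.0453 to 0.143 CPM in controls, 0 in all knockouts) did not overlap between groups (exact permutation p = 0.0286 each, adjusted p = 0.133), both at very low levels. Among single genes tested, 1.53% did not overlap. Of 6 listed gamma delta markers 3 were in the count table, and most of their sum was Trdc (mean 0.881 CPM in controls, 1.44 CPM in knockouts). Trgv2 and Sox13 had lower means in knockouts. The neutrophil sum lay below the floor of 3 counts in every library. The part of these markers in the results was not tested.

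Few genes were called between the groups. By the quasi-likelihood test of edgeR and Benjamini-Hochberg correction, 9 of 12719 genes were called at an adjusted p under 0.05, which is 0.0708% of those tested. Of these, 6 were higher in knockouts (0.0472%) and 3 were lower (0.0236%). An unadjusted p under 0.05 was reached by 310 genes (2.44%), fewer than evenly spread p-values would give. With the replicate number as a block in 8 libraries, described below, 6.33% reached it. Few calls therefore do not mean that few genes differ. Pou2af1 itself was among the 3 that fell. The other 8 were Rps3a1 and Tpm3, a near-identical copy of each, and 4 noncoding or pseudogene transcripts of low level. Expression values are TMM-normalised CPM, changes are log2 differences of knockout against control, and plus-minus values are SD over 4 libraries. CPM is not scaled to gene length, so levels are compared between libraries and not between genes.

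**Figure D1:**
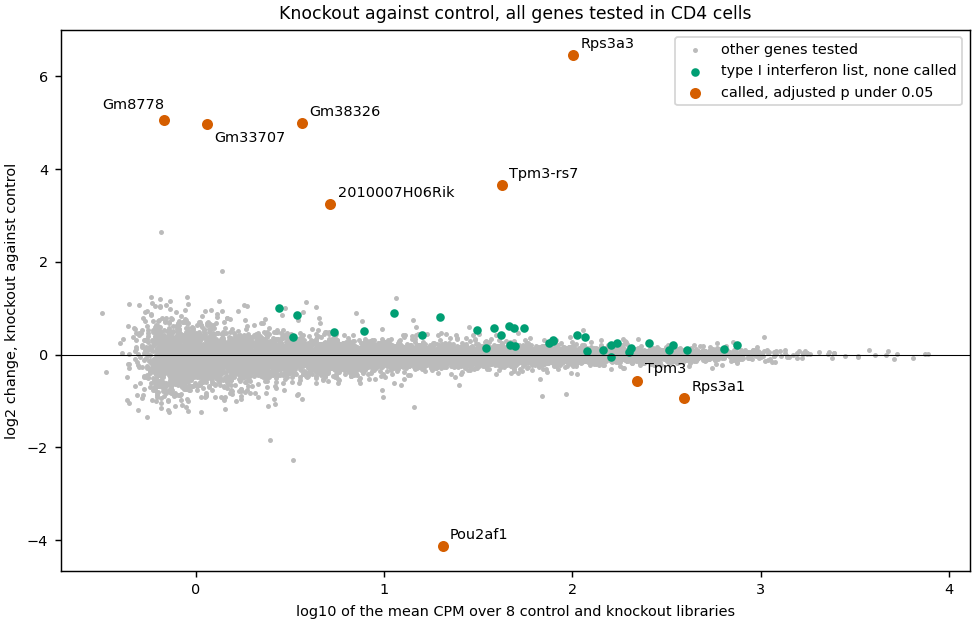
Log2 change of knockout against control (vertical axis) by mean level (horizontal axis, log10 CPM) for the 12719 genes tested in CD4 cells. Orange points are the 9 called genes, and green points are 35 type I interferon response genes, of which none was called and 34 lay above 0.

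Pou2af1 (ENSMUSG00000032053.8, GRCm38 chromosome 9, 51213708 to 51240080) stood at 29.7, 28.7, 46.7 and 49.5 CPM in control libraries 1 to 4 and at 1.31, 1.60, 3.79 and 2.09 CPM in knockout libraries 1 to 4. Every knockout library lay far below every control library, and within both groups libraries 3 and 4 were the higher ones. The means were 38.6 ± 10.98 and 2.20 ± 1.11 CPM (n = 4 each), so knockouts held 5.69% of the control level. The log2 change was -4.13 (SE 0.31, 95% interval -4.81 to -3.45, edgeR quasi-likelihood adjusted p = 2.96e-05), and it was called in 26 of 26 alternative fits. Raw counts in knockouts were 18, 21, 52 and 25, all above the floor of 3, so a remainder was measured in each library. The part of the gene that is floxed is not given in the sources used here.

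Because Pou2af1 is abundant in B cells, markers of B cells were read beside it. Cd79a, a signalling chain of the B cell receptor, stood at 0.425 to 3.16 CPM in controls and 0.726 to 1.90 CPM in knockouts. All 12 B cell markers summed to 110 to 176 CPM in controls and 97.5 to 123 CPM in knockouts, most of it Cd74, which activated T cells also express (exact permutation p = 0.114, adjusted p = 0.267 over 14 measures). The part of such cells in the Pou2af1 level was not tested, and in bulk samples fewer cells of a type and less RNA per cell cannot be told apart.

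The gene 2010007H06Rik (chromosome 9, 51278513 to 51284210) is annotated as an antisense transcript, without a partner gene being named. It starts 38.4 kb beyond the end of Pou2af1 and does not overlap it. It rose from 0.474, 0.779, 1.58 and 1.09 CPM in the controls to 4.50, 6.62, 13.7 and 12.6 CPM in the knockouts. As with Pou2af1, libraries 3 and 4 were the higher ones in both groups, and the groups did not overlap. Its log2 change was 3.24 (SE 0.42, edgeR quasi-likelihood adjusted p = 0.00654). Heterozygotes lay between at 4.41 ± 1.258 CPM (n = 4), an order that is the reverse of that of Pou2af1, at 20.2 ± 4.21 CPM in heterozygotes. The call was lost when only the 8 knockout and control libraries were fitted (adjusted p = 0.0820). The other 21 genes tested within 1 Mb of Pou2af1 had changes of -0.65 to 0.47 with a median of 0.01 and none was called. In that window 2 of 23 genes were thus called (8.70%, against 0.0708% of all genes tested). One of the 2 is Pou2af1 itself, the gene that the window was set by, so this share is no separate result.

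Ribosomal protein S3A, encoded by Rps3a1, is a component of the small ribosomal subunit, and tropomyosin 3, encoded by Tpm3, lies along actin filaments. Both genes have intronless copies elsewhere in the genome. Since the counts of Rps3a1, Tpm3 and their copies moved in opposite directions, the sequences that set them apart are shown. The Rps3a1 transcript and its copy Rps3a3 on chromosome 13, annotated as a processed pseudogene, aligned over 795 bases with 9 differences (98.9% identity) and a longest identical run of 215 bases. Another processed copy, Rps3a2 on chromosome 14, differed from Rps3a1 at 4 of 792 bases. For Tpm3 and Tpm3-rs7 on chromosome 14, annotated as protein coding, 13 of 2102 aligned bases differed (99.4% identity), the longest identical run was 624 bases, and 3 of the differences lay in the coding part of Tpm3. The stretches below are the 75 coding bases with most differences, from GENCODE transcripts of GRCm38, with each difference between a gene and its copy in capitals. They lie at chr3:86141333-86141407 (minus strand), chr13:108670788-108670862 (plus strand), chr3:90079784-90079858 (plus strand) and chr14:113314728-113314802 (plus strand).
Rps3a1: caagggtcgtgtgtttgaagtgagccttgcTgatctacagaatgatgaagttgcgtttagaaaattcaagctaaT
Rps3a3: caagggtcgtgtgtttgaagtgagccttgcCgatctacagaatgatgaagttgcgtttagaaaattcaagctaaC
Tpm3: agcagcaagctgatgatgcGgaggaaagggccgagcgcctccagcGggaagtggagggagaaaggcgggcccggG
Tpm3-rs7: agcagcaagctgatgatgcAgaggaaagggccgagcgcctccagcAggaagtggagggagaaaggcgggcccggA

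Rps3a1 (chromosome 3, 86137940 to 86142702) stood at 554, 531, 502 and 472 CPM in control libraries 1 to 4 and at 278, 279, 256 and 261 CPM in the knockouts. All 4 knockout libraries lay at about the same level, below the lowest control. The means were 515 ± 35.6 and 268 ± 11.6 CPM (n = 4 each), a log2 change of -0.94 (SE 0.06, edgeR quasi-likelihood adjusted p = 8.07e-06). Rps3a3 (chromosome 13, 108670603 to 108671397) moved the other way, from 2.51, 2.20, 2.22 and 2.09 CPM to 202, 203, 190.1 and 201 CPM. Here the spread within each group was small beside the difference, and the log2 change of 6.47 (SE 0.07, edgeR quasi-likelihood adjusted p = 9.09e-15) had the lowest p of all genes tested. Rps3a2 (chromosome 14, 88123017 to 88123808) stood at 3.57 ± 0.291 CPM in controls and 1.69 ± 0.425 CPM in knockouts (n = 4 each). Its groups did not overlap either, as for 194 genes tested (1.53%, with 0.841% lower and 0.684% higher in knockouts), but its change of -1.07 (SE 0.23) was not called (edgeR quasi-likelihood adjusted p = 0.579).

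Tpm3 (chromosome 3, 90072649 to 90100902) fell from 278, 255, 261 and 264 CPM to 175, 182, 173 and 185 CPM, a log2 change of -0.56 (SE 0.06, edgeR quasi-likelihood adjusted p = 0.00162). Its call was lost within libraries 3 and 4 alone (change -0.54, adjusted p = 0.0660). Tpm3-rs7 (chromosome 14, 113314608 to 113316754) rose from 6.98, 6.16, 6.53 and 5.31 CPM to 80.6, 79.5, 73.5 and 79.2 CPM, a log2 change of 3.65 (SE 0.09, edgeR quasi-likelihood adjusted p = 1.21e-10). No library of either group came near the other for Tpm3 or for Tpm3-rs7.

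Summed over gene and copy, the differences were smaller. Rps3a1 and Rps3a3 together held 517 ± 35.8 CPM in controls and 468 ± 16.8 CPM in knockouts, 90.4% of the control sum (n = 4 each, exact 2-sided permutation p = 0.0857). The copy made up 0.412% to 0.450% of that sum in controls and 42.1% to 43.5% in knockouts. Tpm3 and Tpm3-rs7 together held 270.5 ± 10.2 and 257 ± 7.75 CPM, 95.1% of the control sum (exact 2-sided permutation p = 0.0857), and the copy's share went from 1.97% to 2.45% in controls to 29.8% to 31.5% in knockouts. Reads that fit several places were left out of the deposited gene counts and made up 17.7% to 18.4% of all entries per library. How reads were shared between gene and copy is uncertain.

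A further 3 called transcripts were close to absent in controls. Gm38326, a long noncoding transcript (chromosome 3, 60788361 to 60794730), had raw counts of 4, 3, 1 and 6 in the controls and 106, 85, 96 and 86 in the knockouts. Scaled to library totals, the knockout sum was 32.7 times the control sum (95% exact interval 19.3 to 60.5, counting error only), and the fitted log2 change was 4.99 (SE 0.24, edgeR quasi-likelihood adjusted p = 2.13e-07). Gm33707, a processed pseudogene whose end lies 17.9 kb before the start of Gm38326 (chromosome 3, 60769887 to 60770455), summed to 4 counts in controls and 117 in knockouts, a ratio of 35.9 (13.7 to 134; edgeR quasi-likelihood adjusted p = 0.00225). It lost its call in 2 of 26 alternatives: when only the 8 knockout and control libraries were fitted (adjusted p = 0.0654) and within libraries 3 and 4 alone (adjusted p = 0.0660). On chromosome 6, the processed pseudogene Gm8778 (128976866 to 128977972) summed to 2 counts in controls and to 8, 22, 13 and 25 in the knockout libraries, a ratio of 41.8 (11.1 to 352; edgeR quasi-likelihood adjusted p = 0.00425). Gm8778 was called in 20 of the 22 alternatives in which it passed the filter, and lost its call within libraries 1 and 2 alone (adjusted p = 0.459) and within libraries 3 and 4 alone (adjusted p = 0.120).

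**Figure D2:**
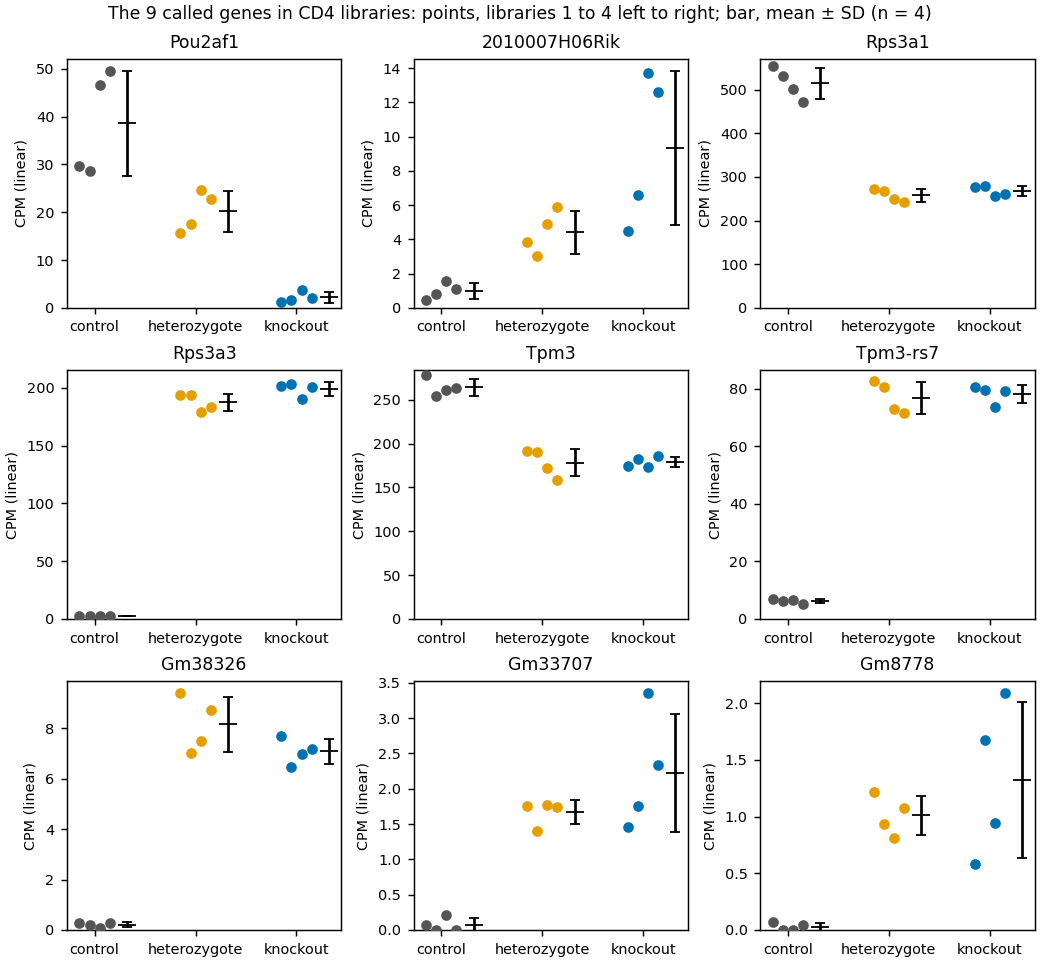
Level of the 9 called genes (CPM, linear axis from 0) in the 4 control, 4 heterozygous and 4 knockout CD4 libraries, with the mean ± SD beside the points. Knockout and control libraries do not overlap for any of the 9, and heterozygotes, which carry Cre, sit near the knockouts for all but Pou2af1 and 2010007H06Rik.

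Heterozygotes share Cre with the knockouts and their control libraries with the comparison above, so their values are set beside it and not counted as a repeat. Against controls, the heterozygote log2 change was -0.999 for Rps3a1, 6.38 for Rps3a3, -0.57 for Tpm3 and 3.63 for Tpm3-rs7, where the knockout changes were -0.94, 6.47, -0.56 and 3.65. It was 5.20 for Gm38326, 4.56 for Gm33707 and 4.70 for Gm8778. Between knockouts and heterozygotes, both Cre carriers, these 7 genes differed by -0.20 to 0.41 on the log2 scale and none was called, each at an edgeR quasi-likelihood adjusted p of 0.9999. Pou2af1 was called there, at -3.19 (SE 0.31, edgeR quasi-likelihood adjusted p = 0.00138), and 2010007H06Rik was not, at 1.09 (SE 0.37, edgeR quasi-likelihood adjusted p = 0.9999). In all, 2 of 12719 genes were called between knockouts and heterozygotes (0.0157%): Pou2af1 and Tmod3, which caps actin filaments and whose knockout change against controls was 0.06.

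CD8 T cells from the same genotypes gave a separate set of libraries, in which 8 of 12612 genes were called (0.0634%). There the knockout log2 changes were -3.998 for Pou2af1, 3.06 for 2010007H06Rik, -0.92 for Rps3a1, 6.45 for Rps3a3, -0.57 for Tpm3, 3.65 for Tpm3-rs7 and 5.35 for Gm8778. The knockout effect differed between CD4 and CD8 cells for 1 of 13288 genes (0.00753%) in the edgeR quasi-likelihood test of the difference itself. That gene was Gm38326, with a difference of 5.82 (SE 0.59, adjusted p = 2.26e-05): in CD8 cells its counts summed to 12 in controls and 7 in knockouts, against 14 and 373 in CD4 cells. Its neighbour Gm33707 summed to 1 and 6 counts in CD8 cells, and its difference of 2.93 (SE 2.01) was not called (adjusted p = 0.9999). Gm38326 was thus high in both CD4 groups that carry Cre and near the floor in CD4 controls and in both of these CD8 groups.

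Of the 9 called genes, 4 lay on chromosome 3 between 60 and 91 Mb: Gm33707, Gm38326, Rps3a1 and Tpm3. That window was drawn after these positions were seen and so carries no test. It held 169 tested genes, of which 2.37% were called and 8.88% had an unadjusted p under 0.05. Over the other 486 tested genes of chromosome 3 none was called and 1.23% reached that p, against 2.44% of all genes tested. Mbnl1, which encodes a splicing regulator, ends 140 kb before Gm33707 and stood at 911, 838, 1009 and 875 CPM in controls and 1036, 1080, 1271 and 1318 CPM in knockouts. Its groups did not overlap, as for 1.53% of all genes tested. Its change of 0.37 (SE 0.08) was not called (adjusted p = 0.580 in edgeR's quasi-likelihood test). It was called by DESeq2 (adjusted p = 0.0497) and by a fit of the 8 libraries with the replicate number as a block and sex as a covariate (adjusted p = 0.0373). That last fit was chosen after seeing the data, left few degrees of freedom and called 0.468% of the genes tested in it. It is called block and sex from here on.

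**Figure D3:**
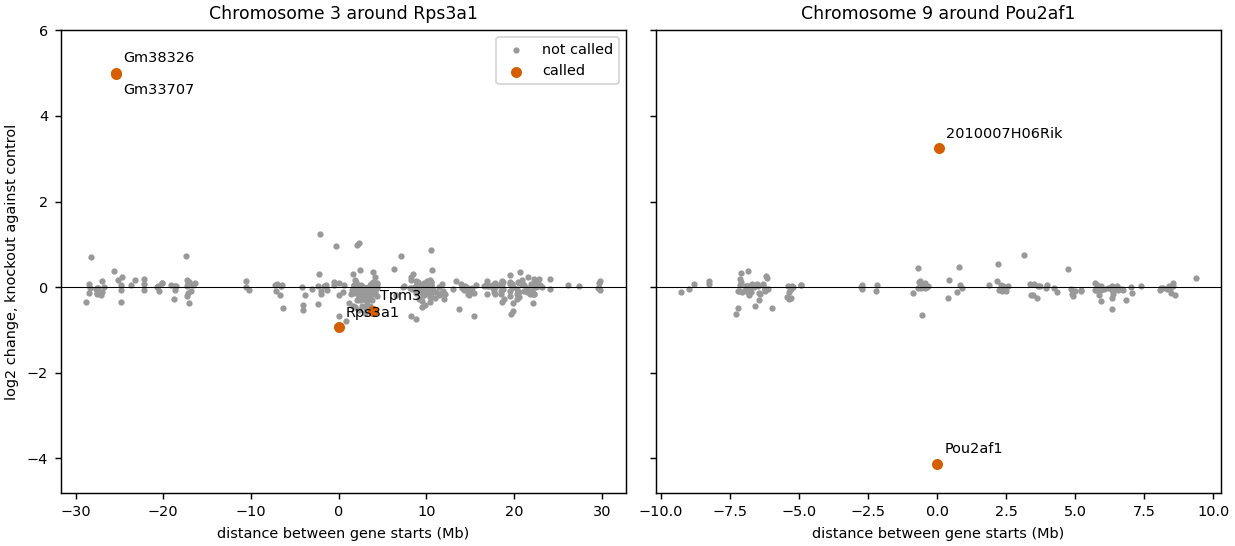
Log2 change of knockout against control (vertical axis) for tested genes by the distance of their start from that of Rps3a1 on chromosome 3 (left) and Pou2af1 on chromosome 9 (right), in Mb. Called genes are orange: 4 on the left, between -25.4 and 3.93 Mb, and 2 on the right, next to each other.

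Genes that work with POU2AF1 or have been reported as its targets in T cells were read as a list. Of 12 listed genes, 11 were tested and none was called, with 7 above 0 and a median change of 0.02 (all genes tested -0.01). Of all genes tested 0.0708% were called, so a list of this length usually holds no call, here and in the lists below. Pou2f1, encoding an octamer-binding partner, stood at 90.2, 82.9, 78.9 and 74.2 CPM in controls and 75.6, 78.4, 69.3 and 66.6 CPM in knockouts. Each knockout library lay below the control of the same number, as for 7.27% of all genes tested, while the groups overlapped (change -0.17, SE 0.08, edgeR quasi-likelihood adjusted p = 0.9998). Pou2f2, the other partner, stood at 151 ± 8.64 and 143 ± 24.4 CPM (n = 4 each, change -0.08, SE 0.11).

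Among reported targets, Il2, the T cell growth factor, stood at 139, 166, 88.1 and 132 CPM in controls and 151, 123, 114 and 223 CPM in knockouts. The groups overlapped, and the 95% interval of its change of 0.22 ran from -0.33 to 0.77. Ifng, the type 1 cytokine, was low at 1.08, 1.28, 3.51 and 1.95 CPM in controls and 2.18, 5.78, 1.68 and 2.09 CPM in knockouts. One knockout library set its mean apart, and the interval of its change of 0.59 ran from -0.34 to 1.51. For Btla, an inhibitory receptor, the levels were 574 ± 35.9 and 582 ± 87.3 CPM (n = 4 each) and the interval ran from -0.20 to 0.24. The interval was -0.21 to 0.24 for Hprt, a purine salvage enzyme, -0.23 to 0.33 for Cd69, an early activation receptor, and wider, -0.19 to 0.55, for Bcl6, a repressor needed by follicular helper cells. Csf2, which encodes GM-CSF, had an interval of -0.86 to 1.01 and Prdm1, which encodes BLIMP-1, one of -0.85 to 0.71, so a change of 0.5 on the log2 scale in either direction was within the interval of both. Il17a had a count in 2 of the 8 libraries and was not tested.

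The octamer, searched as ATGCAAAT or its reverse complement ATTTGCAT in promoters of 300 bases (RefSeq, GRCm38.p6), was found in 149 of 9186 tested genes with a promoter in the table (1.62%). None of the 4 called genes with a promoter entry and none of 9 partners and reported targets with an entry held it. Tested genes with the octamer had a median change of -0.03 and those without it a median of -0.00380. A missing match says only that these letters are not in the window.

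**Figure D4:**
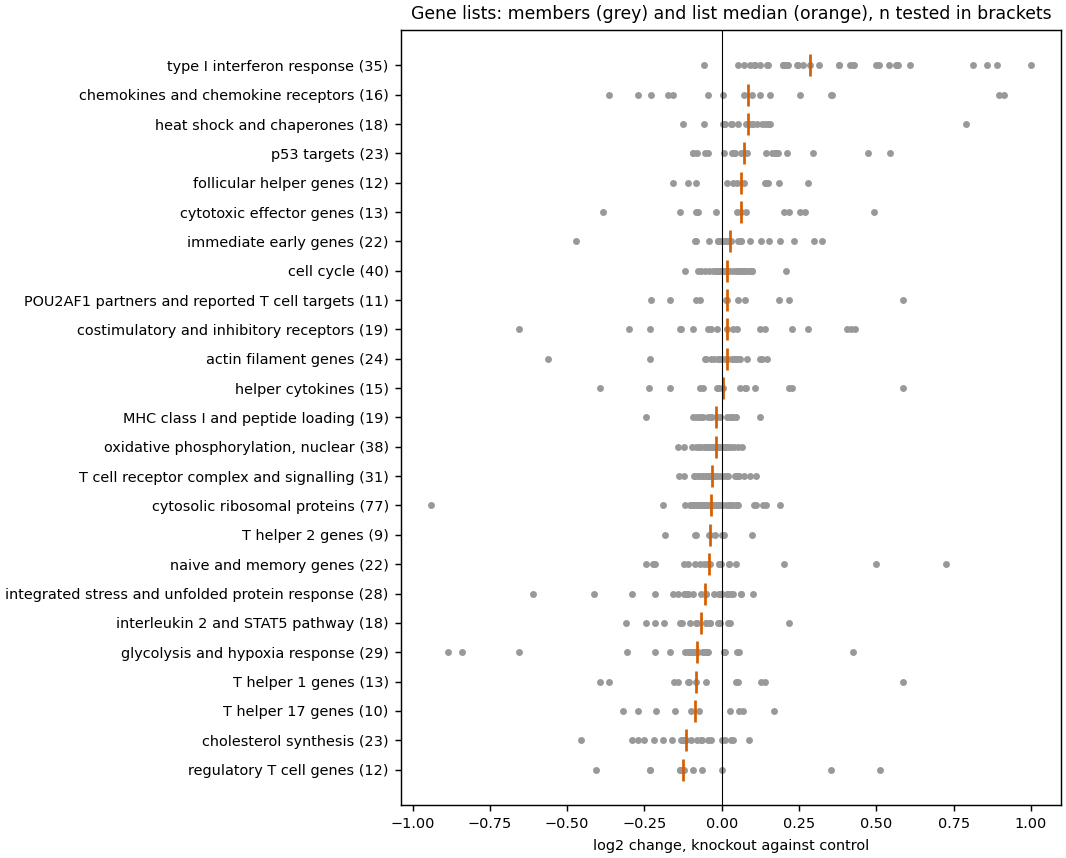
Log2 change of knockout against control for the tested members of 25 gene lists (grey points) with each list's median (orange bar). Most medians lie within 0.13 of 0, and the type I interferon list stands highest at 0.29 with 34 of 35 members above 0.

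Genes of T cell receptor signalling gave no call. Of 31 tested genes of the T cell receptor complex and its signalling chain, none was called, the median was -0.03, changes ran from -0.14 to 0.11, and 29 had 95% intervals within 0.5 of 0 on the log2 scale. Trbc2, a constant segment of the receptor beta chain that stood in the T cell marker list and not in this one, was at 187, 188, 236 and 181 CPM in controls and 238, 260, 276 and 227 CPM in knockouts. It was higher in 4 of 4 same-numbered pairs with overlapping groups, and was not called without the block (change 0.34, SE 0.12, edgeR quasi-likelihood adjusted p = 0.9998) or with it (adjusted p = 0.0592), but was called with block and sex (adjusted p = 0.00931). Helper cell programmes likewise gave no call: medians were -0.08 over 13 T helper 1 genes, -0.04 over 9 T helper 2 genes, -0.09 over 10 T helper 17 genes, 0.06 over 12 follicular helper genes and -0.13 over 12 regulatory T cell genes. In the follicular helper list, Pdcd1, which encodes the inhibitory receptor PD-1, stood at 63.8, 72.2, 59.5 and 72.3 CPM in controls and 76.7, 79.3, 87.2 and 81.6 CPM in knockouts. Its groups did not overlap, as for 1.53% of all genes tested, and it was named for its low p. Its change of 0.28 (SE 0.08) was not called (adjusted p = 0.9998 in edgeR's quasi-likelihood test). Tnfrsf4, which encodes the costimulatory receptor OX40, changed by -0.14 (SE 0.06), and Lag3, an inhibitory receptor, by -0.30 (SE 0.15), neither called, though Lag3 was with block and sex (adjusted p = 0.0446).

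Of 22 genes of naive and memory cells, 16 lay below 0 (median -0.04) and none was called. Lef1, a transcription factor of naive cells, changed by -0.12 (SE 0.09). Cytokine genes were more variable between libraries: over 15 tested helper cytokines the median was 0.00460 and 2 had an interval within 0.5 of 0. Lta, which encodes lymphotoxin alpha, changed by -0.39 (SE 0.24) without a call, but was called with block and sex (adjusted p = 0.0358).

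The programmes of growth and metabolism differed in precision. All 40 cell cycle genes and all 38 nuclear oxidative phosphorylation genes had 95% intervals within 0.5 of 0, with medians of 0.02 and -0.02. Ccne2, a cyclin of the start of DNA replication, changed by 0.21 (SE 0.10) without a call. Of 77 cytosolic ribosomal protein genes 1 was called, Rps3a1 (0.0708% of all genes tested were called), and the median was -0.04. Of 24 actin filament genes 1 was called, Tpm3, against the same 0.0708%, and the median was 0.02. Capza2, an actin capping subunit, changed by 0.15 (SE 0.06) without a call. Over 29 glycolysis and hypoxia genes (median -0.08) and 23 cholesterol synthesis genes (median -0.12) no gene was called, and 6 and 3 genes had intervals within 0.5 of 0. The glucose transporter gene Slc2a3 stood at 27.2 and 32.2 CPM in control libraries 1 and 2 and at 262 and 155 CPM in libraries 3 and 4, so its change of -0.84 had an SE of 0.68. Tm7sf2, a sterol reductase, changed by -0.46 (SE 0.27).

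Stress programmes had no calls in the fit of 12 libraries. Of 23 p53 targets, 18 lay above 0 (median 0.07). Pmaip1, which encodes the pro-apoptotic protein NOXA, stood at 13.7, 13.5, 19.3 and 20.7 CPM in controls and 16.8, 21.2, 25.3 and 30.4 CPM in knockouts, higher in each same-numbered pair but with overlapping groups (log2 change 0.47 with an SE of 0.20; adjusted p = 0.9998 in edgeR's quasi-likelihood test). With block and sex it was called (adjusted p = 0.0338). Cdkn1a, the cell cycle inhibitor p21, changed by 0.21 (SE 0.10) and Gtse1, a p53 regulator, by 0.18 (SE 0.07). Of 18 chaperone genes, 16 lay above 0 (median 0.08), and the heat shock gene Hspa1b was low, at 1.07 ± 0.276 and 1.85 ± 0.754 CPM (n = 4 each). Of 28 genes of the integrated stress and unfolded protein responses, 20 lay below 0 (median -0.05), 8 were lower in 4 of 4 same-numbered pairs (7.27% of all genes tested were) and 6 had an unadjusted p under 0.05 with the block (6.33% of all). With block and sex 2 of the 28 were called lower, Ddit3 (adjusted p = 0.0331) and Trib3 (adjusted p = 0.0358). In that fit 0.169% of all genes tested were called lower. Without the block Ddit3, which encodes CHOP, changed by -0.41 (SE 0.35), and the serine synthesis genes Phgdh and Psat1 by -0.16 (SE 0.14) and -0.11 (SE 0.13).

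The type I interferon response was the list whose members lay most to one side. Interferon-stimulated genes are induced through the factor ISGF3, which binds the interferon-stimulated response element. Of 36 listed genes, 35 were tested, 34 of them lay above 0 (47.9% of all genes tested did), the median change was 0.29 (all genes tested -0.01) and none was called. List and members were chosen with earlier results of these data known. The level of the list also differed between libraries within a group, with a mean log2 level of 5.44 to 6.08 in controls. Many members rose and fell together, so they are not 35 separate observations. Ifit1, an RNA-binding antiviral protein gene, stood at 33.1, 24.8, 38.3 and 61.4 CPM in controls and 55.5, 31.9, 52.3 and 94.97 CPM in knockouts. Library 4 was the highest and library 2 the lowest in both groups, so the groups overlapped while each knockout lay above the control of its number. Oasl2, an oligoadenylate synthetase-like gene, stood at 50.2, 33.2, 33.5 and 60.9 CPM in controls and 79.3, 52.9, 43.5 and 88.0 CPM in knockouts. Over the list, 19 of 35 genes were higher in 4 of 4 same-numbered pairs, as were 888 of all genes tested (6.98%), and the median differences of the 4 pairs were 0.44, 0.30, 0.12 and 0.32.

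Since same-numbered libraries deviated together, the number was also fitted as a block. Knockout and control libraries of unlike number within 1 and 2, or within 3 and 4, deviated together too (correlations of 0.312 to 0.631). With the replicate number as a block and only the 8 knockout and control libraries, 14 of 12390 genes were called (0.113%), 11 higher (0.0888%) and 3 lower (0.0242%). They comprised 8 of the 9 genes above, Gm8778 not being tested there, and 6 interferon-inducible genes: Ifit1 (0.55, SE 0.07, edgeR quasi-likelihood adjusted p = 0.0265), Oasl2 (0.56, SE 0.07, adjusted p = 0.01004), Cmpk2, a nucleotide kinase (0.53, SE 0.07, adjusted p = 0.0289), Parp12, an ADP-ribosyltransferase (0.61, SE 0.07, adjusted p = 0.0101), Slfn9, a Schlafen family member (0.53, SE 0.06, adjusted p = 0.00816), and Ifi213, of the interferon-inducible p200 family (0.45, SE 0.07, adjusted p = 0.0435). Of the interferon list, 3 of 35 genes were called in this fit and 23 had an unadjusted p under 0.05, as did 6.33% of all genes tested in it. Without the block all 6 had an adjusted p of 0.9998, and with the block in a fit of 12 libraries the 9 calls held none of them. With libraries 1 and 2 against 3 and 4 as a covariate in 12 libraries, none of them was called either. That fit added only Klrc2 to the 9 calls. Other members followed the same pairs without a call: Ifit3 and Ifit3b, antiviral genes related to Ifit1, changed by 0.92 and 1.03 with the block (edgeR quasi-likelihood adjusted p = 0.0615 and 0.102), Zbp1, a sensor of Z-form nucleic acid, by 0.27 (adjusted p = 0.544), and Cxcl10, an interferon-induced chemokine, by 0.86 (adjusted p = 0.0936).

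**Figure D5:**
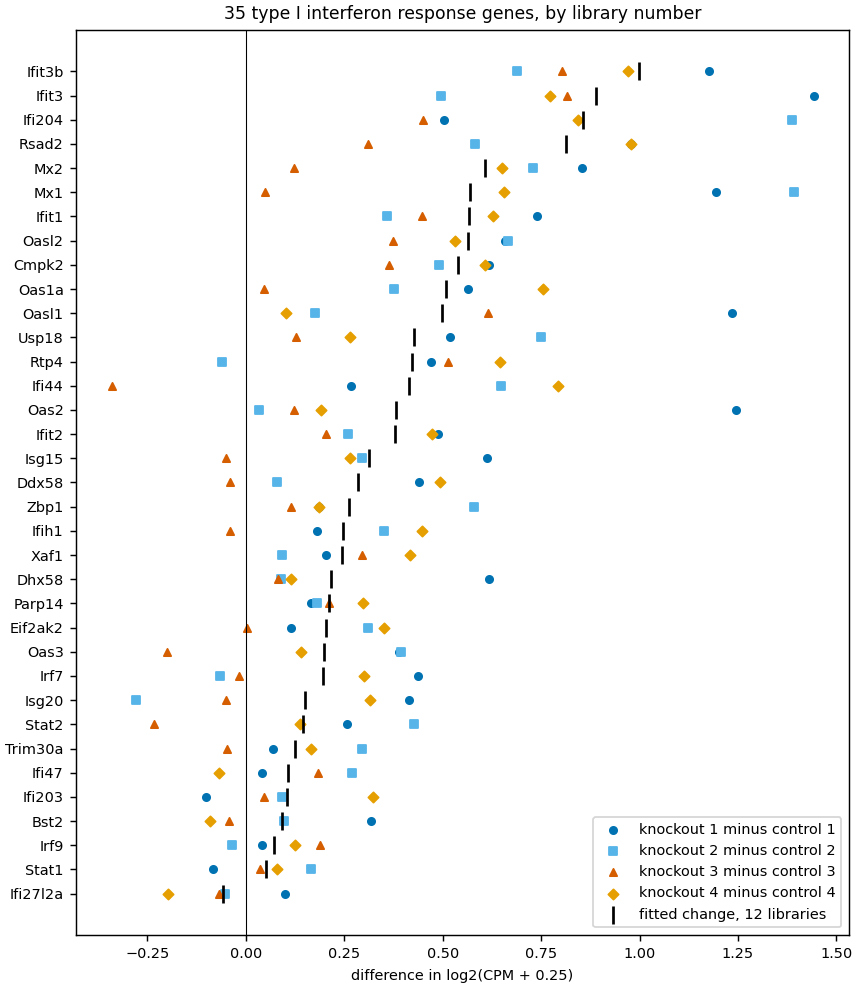
Difference between the knockout and the control library of the same number in log2(CPM + 0.25) for 35 type I interferon response genes, ordered by fitted change (black bar). The 4 symbols are the 4 pairs: most points lie right of 0 and pair 3 (triangles) has the lowest median, 0.12.

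The response element was looked for in the same promoters as a pair of GAAA separated by any 2 bases, or a pair of TTTC so spaced for the other strand. It was found in 14 of 24 interferon list genes with a promoter entry (58.3%) and in 3.93% of 9186 tested genes with one. Within the list, genes with the element had a median change of 0.27 and those without it a median of 0.31. Over all tested genes with an entry the medians were 0.015 with the element and -0.0049 without it. Among the 6 genes that the block added, the promoters of Ifit1, Slfn9 and Ifi213 held it and those of Oasl2, Cmpk2 and Parp12 did not. The 250 bases before the RefSeq start of Ifit1 (chr19:34640639-34640888, plus strand) and of Slfn9 (chr11:82991831-82992080, minus strand) are shown as examples of the 3 promoters with a match, matches being in capitals. In the count table Ifit1 starts at 34640871, inside the end of the stretch shown. A match is a description of the letters, and binding was not measured.
Ifit1: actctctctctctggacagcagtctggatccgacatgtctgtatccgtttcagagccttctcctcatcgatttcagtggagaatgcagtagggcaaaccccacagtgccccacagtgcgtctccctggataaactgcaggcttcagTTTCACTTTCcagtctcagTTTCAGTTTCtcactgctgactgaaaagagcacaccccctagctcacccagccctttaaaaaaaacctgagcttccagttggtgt
Slfn9: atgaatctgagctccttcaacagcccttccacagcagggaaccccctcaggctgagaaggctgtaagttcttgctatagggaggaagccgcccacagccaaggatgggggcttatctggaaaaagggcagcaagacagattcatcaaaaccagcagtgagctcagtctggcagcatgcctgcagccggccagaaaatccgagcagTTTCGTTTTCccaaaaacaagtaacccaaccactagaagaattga

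Heterozygotes also lay above their controls for this list (median 0.47), with the same control libraries, and knockout CD8 cells did in 35 of 35 genes (median 0.64). None of the genes that the block added was called in CD8 cells, each at an edgeR quasi-likelihood adjusted p of 0.987. Whether CD4 and CD8 libraries came from the same mice is not stated in the labels, so the CD8 values are not counted as a repeat. The mean log2 level over the 35 genes was 5.72, 5.44, 5.46 and 6.08 in control libraries 1 to 4, 6.21, 5.79, 5.62 and 6.47 in knockouts, and 5.68, 6.37, 6.63 and 6.41 in heterozygotes. The groups overlapped in this measure. Sex differed within pairs 2 and 3. With sex added to the block, an alternative chosen after seeing the data, 58 genes were called (0.468%), 37 higher (0.299%) and 21 lower (0.169%), among them 10 of the interferon list. Few degrees of freedom remain for the spread in that fit. Sex as a covariate without the block, in the fit of 12 libraries, gave the same 9 calls as the main fit.

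Outside these groups, the genes of lowest unadjusted p are given as not passing. The 8 highest-ranked that lay above controls, other than genes of Gm or Rik name, were Ston2, an endocytic adaptor (change 1.02, SE 0.22), Mbnl1, Gosr2, a Golgi SNARE (0.19, SE 0.05), Dusp16, a phosphatase of MAP kinases (0.25, SE 0.06), Cacna2d1, a calcium channel subunit (0.86, SE 0.23), Zfp119a (0.43, SE 0.12), Zfp365 (0.54, SE 0.15) and Pdcd1. Their adjusted p in the edgeR quasi-likelihood test ran from 0.579 to 0.9998. Ston2 stood at 1.69, 1.56, 2.51 and 2.09 CPM in controls and 3.78, 3.58, 4.23 and 4.35 CPM in knockouts, with no overlap. Those below controls were Zbtb20, a zinc finger repressor (-0.49, SE 0.10), Rps3a2, Lncpint, a long noncoding RNA (-1.24, SE 0.28), Slc2a4rg-ps (-0.41, SE 0.10), Leng8 (-0.31, SE 0.07), Acox3, a peroxisomal oxidase (-0.27, SE 0.07), Ptprs, a receptor phosphatase (-0.28, SE 0.07), and C4a, a complement component (-1.11, SE 0.30). Zbtb20 stood at 13.4, 10.6, 11.8 and 11.5 CPM in controls and 9.22, 7.61, 8.75 and 8.03 CPM in knockouts. None of the 16 passed. With block and sex 5 of them (Ston2, Rps3a2, Leng8, Mbnl1 and Ptprs) were called, at adjusted p of 0.0215 to 0.0373, where 0.468% of all genes tested were. Since they were picked for low p in the same libraries, neither these calls nor whether their groups overlapped is a separate result.

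How large a change could have gone unseen depended on level. The 95% interval of the change lay within 0.5 of 0 on the log2 scale for 65.0% of all genes tested and within 1 for 88.5%. Among 8406 genes with a mean of at least 10 CPM, 89.2% had intervals within 0.5 of 0.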

How the data were processed

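RNA was made into poly(A)-selected libraries, per the labels' protocols. The raw counts per gene are whole numbers that the authors deposited, and per the submitters' processing notes Trimmomatic 0.35, STAR 2.7.1a and DESeq2 1.26.0 were used with GRCm38. Neither the annotation release nor the strand setting is given in the sources used here, and reads of genes that overlap, on either strand, may be mixed. Summary lines for reads assigned to no gene (32.2% to 35.0% of entries per CD4 library) were left out of library sizes and tests. The deposited normalized signal served in 1 alternative only, as log2(signal + 1). The number of per-sample columns left unused was 0.

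The tests were run with edgeR 4.0.16 under R 4.3.3, using filterByExpr (default count of 10), TMM factors (0.981 to 1.02), a quasi-likelihood F test over 12 CD4 libraries (9 residual degrees of freedom, common biological coefficient of variation 0.161), 2-sided, with Benjamini-Hochberg adjustment over all 12719 genes. Each SE is the log2 change divided by the root of its F statistic. The interaction with cell type used all 24 libraries. Single values per library were compared by an exact permutation test over 70 assignments. The test was tried on simulated counts with known changes and a smaller spread between libraries than in these data. That trial therefore does not show how the test performs here. Alternatives used limma 3.58.1 and DESeq2 1.42.0. Promoters were taken from RefSeq.

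Replicate numbers come from the sample titles, which do not say what a number marks. The deviations of same-numbered knockout and control libraries from their group means correlated at 0.395 to 0.624 in 4 of 4 pairs, so the numbers were taken to pair the libraries. Knockout 1 correlated as closely with control 2 (0.631) and knockout 3 with control 4 (0.559). Over 12 pairs of libraries within a group, chi-square divided by its degrees of freedom was at least 3.76, so each pair differed by more than sampling noise.

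Named genes were Pou2af1, called genes with or without the block, the 8 of lowest p each way, the POU2AF1 list, the up to 4 members of lowest p in each other list, neighbours within 1 Mb of Pou2af1 and copies of called genes. Neighbours and some list members are given as ranges or counts, and a few are not reported here. Members and lists were chosen with earlier results of these data known.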

Additional observations from a re-analysis of the deposited data

Results flagged for a closer look

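In 120 groups of 4 libraries (each gene described in knockouts and in controls), 5 held a library far from the other 3 by Dixon's test at 95%, where chance flags about 1 in 20 groups. They were Rps3a3 in knockout library 3 (low, 190.1 CPM), Dusp16 in control library 2 (low, 37.8 CPM), Ifng in knockout library 2 (high, 5.78 CPM), Bcl6 in knockout library 2 (high, 13.3 CPM) and Hspa1b in knockout library 1 (high, 2.98 CPM). Knockout library 2 is 1 of the 2 female libraries, and the part of sex in its values was not tested gene by gene. The knockout effect on Gm38326 differed between CD4 and CD8 cells by 5.82 on the log2 scale (edgeR quasi-likelihood test of the difference, adjusted p = 2.26e-05).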

How the results depend on the processing

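The count of called genes stayed within 1.5 times of 9 in 24 of 26 alternatives, from 6 to 10, and was 9 without any 1 of the 8 knockout and control libraries. It was 14 with the replicate block on 8 libraries and 58 with the replicate block and sex, which was chosen after seeing the data, as were sex as a covariate and the robust fit (9 each). With the block on 12 libraries it was 9, and with the 8 libraries and no block 6. Genes whose knockout effect differed between CD4 and CD8 cells numbered 1 in 20 of 21 alternatives and 2 in limma-trend. Pou2af1 was called in 26 of 26.

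No called gene changed direction, while some that were not called did. Within replicates 1 and 2 alone the log2 change was -0.16 for Il2, -0.058 for Csf2, -0.086 for Btla, 0.098 for Prdm1, -0.038 for Hprt, 0.0032 for Lta and 0.021 for Slc2a3. Within replicates 3 and 4 alone it was 0.050 for Pou2f2 and -0.49 for Ifng. Leaving out 1 library gave -0.022 to 0.35 for Il2, -0.22 to 0.41 for Csf2, -0.053 to 0.11 for Btla, -0.31 to 0.16 for Prdm1, -0.026 to 0.17 for Cd69 and -0.060 to 0.090 for Hprt. The cause of these changes was not tested.

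Depth limits what low genes can show, since a count of 3 is up to 0.249 CPM in these 8 libraries.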
